A study of Mus musculus with 15 samples.

Results

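The stretch of mouse chromosome 2 that runs from Ckap2l through the interleukin 1 genes Il1a and Il1b to Sirpa was examined in DNA of liver tumors and unaffected livers by array comparative genomic hybridization (aCGH), in which labeled tissue DNA and labeled reference DNA compete for short probes on a slide. Its members are the 11 probes whose positions in the scanner files lie between 129114566 and 129434852 on chromosome 2, out of 40726 autosomal probes in all and 3524 on that chromosome. The limits were chosen from measured log2 ratios of these same arrays, so values that set the members apart from their neighbors are given as descriptions, with no test. The probes matched Ckap2l (1 probe), Il1a (2), Il1b (1), the transcript AK076405 (1), F830045P16Rik (2), Sirpa (2) and positions between genes (2), and 10 flanking probes on either side were read alongside. Which genome build these positions refer to is not given in the sources used here.

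The labels give 8 tissues of 3 mice, all Mad2(f/f) on the strain C57BL/6.129-Mad2flox,p53flox,AlbuminCre, in which Cre under the Albumin promoter acts in hepatocytes. Mouse 3151 was a p53(f/+) female of 16.4 months and gave tumors 1 and 2 and unaffected liver, each measured against male reference liver. Mouse 3760 was a p53(f/f) male of 13.8 months and gave tumor 2 and liver, and mouse 4033, a p53(f/f) male of 13.9 months, gave tumors 1 and 2 and liver, all against female reference liver. The tumors are hepatocellular carcinomas (HCC), and the reference liver has the strain C57BL/6.129 and was wild type per the study. Sex, age, sex of the reference, Trp53 genotype and mouse cannot be told apart in the ratios where mouse 3151 differs from the rest. Across the 15 arrays the median signal over background was 3.72 to 7.95, probe noise per tissue was 0.08 to 0.20 on the log2 scale, and the mean X chromosome ratio was above 0 in the 3 tissues of the female and below 0 in the 5 tissues of the males.

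Il1a and Il1b encode the secreted cytokines interleukin 1 alpha and beta, which start inflammatory signaling through the receptor Il1r1, and in liver they are made mainly by resident macrophages. Sirpa encodes an inhibitory receptor of myeloid cells that binds Cd47 on other cells and restrains phagocytosis. Ckap2l encodes a protein of the mitotic spindle. In aCGH a copy gained in every cell raises the log2 ratio of tissue over reference, a lost copy lowers it, and in bulk tissue the share of cells with a change and the size of the change per cell cannot be told apart. A ratio need not reflect copy number alone. The study describes candidate genes shared by its thymus and liver tumors as likely hybridization artifacts of a mixed strain background. Whether this applies to the probes here was not tested.

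The label of the interval did not hold for its middle: 9 of the 11 member probes, with both Il1a probes, the Il1b probe and 1 of the Sirpa probes among them, lay near the chromosome 2 median, and the first and the last member probe alone carried large ratios. Those 2 probes are shown here with the probes of these genes that lay near 0 and with the flanking intergenic probe described further on, in the direction the scanner files print them, taken as 5′ to 3′, since the contrast lies between single probes. Capitals mark a stretch of at least 10 bases that occurs again in the same probe without overlap. Neither the strand nor the direction is stated in the sources used here.
Ckap2l, last flanking probe before the interval (chr2:129094743-129094802): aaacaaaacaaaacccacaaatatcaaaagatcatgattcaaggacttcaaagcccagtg
Ckap2l, first member probe (chr2:129114566-129114625): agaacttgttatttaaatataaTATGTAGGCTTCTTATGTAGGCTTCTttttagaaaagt
Il1a, member probe 2 (chr2:129126135-129126194): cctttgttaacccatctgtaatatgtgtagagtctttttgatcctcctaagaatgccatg
Il1a, member probe 3 (chr2:129134770-129134829): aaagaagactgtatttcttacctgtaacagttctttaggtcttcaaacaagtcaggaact
Il1b, member probe 5 (chr2:129195457-129195514): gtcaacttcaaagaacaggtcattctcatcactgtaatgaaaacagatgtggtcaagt
Sirpa, member probe 10 (chr2:129426268-129426324): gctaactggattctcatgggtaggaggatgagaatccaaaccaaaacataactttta
Sirpa, last member probe (chr2:129434793-129434852): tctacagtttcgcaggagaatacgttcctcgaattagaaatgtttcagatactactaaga
Intergenic, flanking probe 6 after the interval (chr2:129810877-129810936): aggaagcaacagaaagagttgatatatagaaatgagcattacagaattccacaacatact

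The first member probe holds a stretch of 13 bases directly followed by a second copy of itself, and 57 of 40726 autosomal probes (0.14%) hold a repeat at least as long. Of those 57 probes it was the only one with every tissue of mouse 3151 at least 0.3 above all others, against 0.503% of all autosomal probes. The interval was chosen with this contrast, so nothing is read from that count, and a link between repeat and ratio was not tested. Its GC content was 25.0%, against a median of 36.7% over all autosomal probes, and 1.98% of probes had a GC content as low. The last member probe, in Sirpa, had a GC content of 36.7% and no repeat longer than 5 bases. The 2 probes shared no run longer than 7 bases on either strand, and neither shared 16 bases with any other autosomal probe. The fourth member probe, between Il1a and Il1b, also had a GC content of 25.0%, and its ratios are given below.

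Values are log2 of tissue over reference minus the chromosome 2 median of the tissue, averaged over the dye orientations, unless another scale is named. At the first member probe, in Ckap2l, the value was 2.40 in tumor 1, 1.72 in tumor 2 and 1.81 in the liver of mouse 3151. It was -2.45 in tumor 2 and -2.55 in the liver of mouse 3760, and -2.99 in tumor 1, -2.36 in tumor 2 and -3.15 in the liver of mouse 4033. The 3 tissues of the female mouse were therefore all high and the 5 tissues of the males all low, tumor and unaffected liver alike, and HCC and liver each held both signs. The last member probe, in Sirpa, had the same signs, with 3.58, 2.93 and 3.24 in tumor 1, tumor 2 and the liver of mouse 3151. In mouse 3760 it was -3.48 in tumor 2 and -3.32 in the liver, and in mouse 4033 it was -4.40 in tumor 1, -3.45 in tumor 2 and -4.14 in the liver. No tissue lay between -2.36 and 1.72 at the first probe or between -3.32 and 2.93 at the last.

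**Figure D1:**
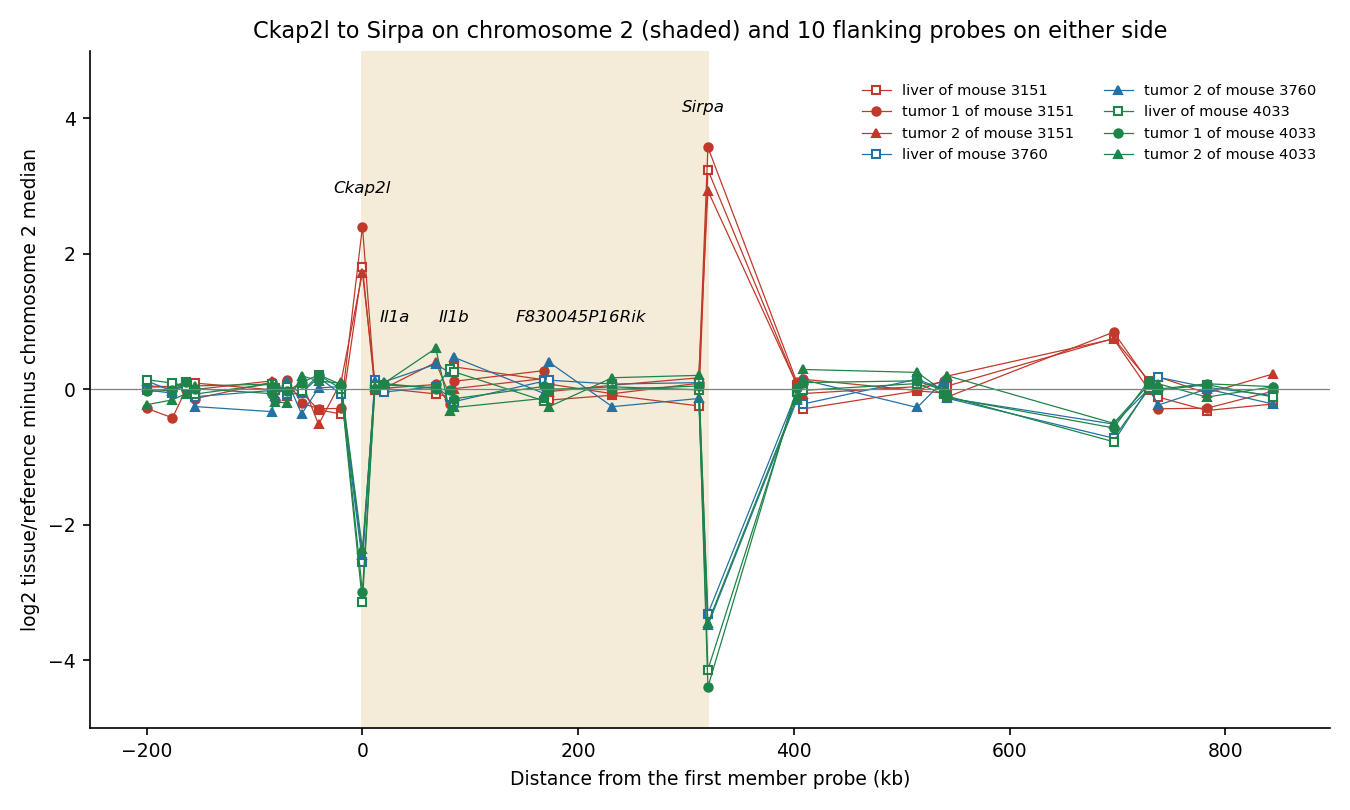
The log2 ratio of tissue over reference, minus the chromosome 2 median of the tissue, is plotted for the 11 member probes (shaded span) and 10 flanking probes on either side against the distance in kb from the first member probe. Color gives the mouse, filled symbols are HCC and open squares unaffected livers; the first (Ckap2l) and last (Sirpa) member probes stand at 1.72 to 3.58 in mouse 3151 and at -4.40 to -2.36 in the other mice, with the 9 probes between them near 0.

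The probes on either side of these 2 stood apart from them. The last probe before the interval also lies in Ckap2l, 19.8 kb before the first member, and ranged from -0.37 in the liver of mouse 3151 to 0.11 in tumor 2 of that mouse. The tenth member probe, also in Sirpa and 8.5 kb before the last member, ranged from -0.25 in the liver of mouse 3151 to 0.21 in tumor 2 of mouse 4033, and both signs occurred within each mouse. The first probe after the interval, in AK133597, ranged from -0.16 to 0.10. In Ckap2l and in Sirpa alike, 1 of 2 probes thus carried the difference between mice.

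Both dye orientations gave the sign of each large value in 7 of 7 tissues that had both, and the size differed between orientations. On the array-centered scale (relative to all autosomal probes), the Sirpa probe in the liver of mouse 3151 was 2.56 on the forward array, with tissue in Cy5, and 3.94 on the dye-swap array. In the liver of mouse 3760 it was -2.42 forward and -4.16 swapped. At the Ckap2l probe the largest difference between orientations was 2.00, in tumor 2 of mouse 4033, with -3.46 forward and -1.46 swapped. The tissue of mouse 3760 with 1 array, tumor 2, had no dye swap.

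The channels behind these ratios were read separately. On the 6 arrays of mouse 3151 the Sirpa probe gave a processed intensity of 892 to 1203 in the tissue channel and 57.0 to 186 in the reference channel, where it was not well above background on any array. On the 9 arrays of mice 3760 and 4033 the tissue channel gave 40.5 to 151, not well above background on any array, and the reference channel 764 to 1132. The bright channel was thus of like intensity in both sets, but held the tissue in the first set and the reference in the second. The Ckap2l probe had the same arrangement, with 352 to 483 in the tissue channel of mouse 3151 against 53.2 to 180 in its reference. The males had 36.7 to 152 in the tissue channel against 362 to 516 in their reference. At both probes the bright channel thus held female DNA and the dim channel male DNA on every array. The male and the female reference, both wild type per the study, therefore differed from each other as well. Whether this goes with sex or with the animals used was not tested. The arrangement was well above background in the tissue channel of every mouse 3151 array and the reference channel of every other array, and in no other channel. Of the 40726 autosomal probes only the Ckap2l and the Sirpa probe had it, and 0 probes had the reverse. Since the arrangement was taken from these 2 probes, nothing is read from that count.

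Because the dim channel was never well above background, with a substituted signal on all 15 arrays, each large ratio is a bound. It was computed against the higher of the dim signal and the lowest signal among spots well above background in that channel, with the arrays of a tissue averaged first. At the Sirpa probe, tissue DNA of mouse 3151 was at least 9.67-fold brighter than its male reference (mean of 3 tissues, which ranged from 7.59 to 12.9), and the female reference was at least 12.9-fold brighter than the tissues of mice 3760 and 4033 (5 tissues, 9.78 to 17.6). At the Ckap2l probe the bounds were at least 4.01-fold (3.28 to 5.70) for mouse 3151 and at least 6.02-fold (5.21 to 8.47) the other way for the males. The order of tissues within either set therefore has no meaning at these probes. The tenth member probe, in Sirpa, was well above background in both channels of every array, with 600 to 1396 in the tissue channel and 548 to 1126 in the reference channel.

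**Figure D2:**
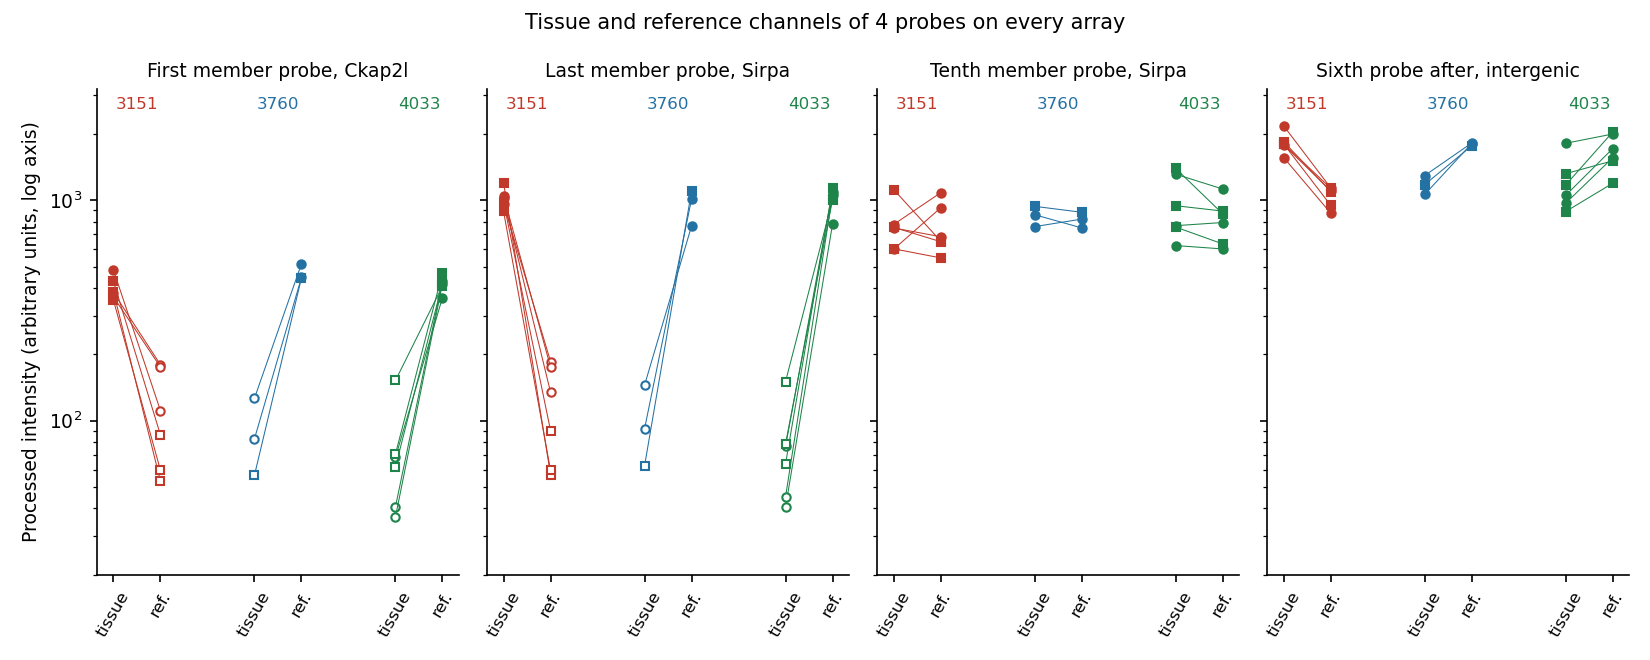
Processed intensity in arbitrary units (log axis) of the tissue channel and the reference channel, joined per array, for 4 probes and 3 mice; circles are forward and squares dye-swap arrays, and open symbols are not well above background. The first and last member probes are bright in the tissue channel of mouse 3151 and in the reference channel of mice 3760 and 4033, the tenth member probe is bright in both channels, and the intergenic probe after the interval is bright in both with the tissue higher in mouse 3151 only.

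Every tissue of mouse 3151 lay at least 0.3 above every tissue of the other mice at 2 of the 11 member probes and at 205 of 40720 autosomal probes with a value in all tissues (0.503%). Since the choice of the interval used this contrast, nothing is read from the count. At both of these members, the Ckap2l and the Sirpa probe, the gap is a bound, and it gets no rank among the probes. No member had such a gap in another direction or for another mouse, against 0.985% of autosomal probes. At a limit of 1 on either side of 0, chosen after the values were seen, 5 probes (0.0123%) had all tissues of mouse 3151 at or above 1 and all others at or below -1. These were the Ckap2l and Sirpa probes, a probe in AK034276 on chromosome 2 (97203412 to 97203471), and 2 intergenic probes on chromosome 12 (102597916 to 102597975, and 105178127 to 105178186).

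**Figure D3:**
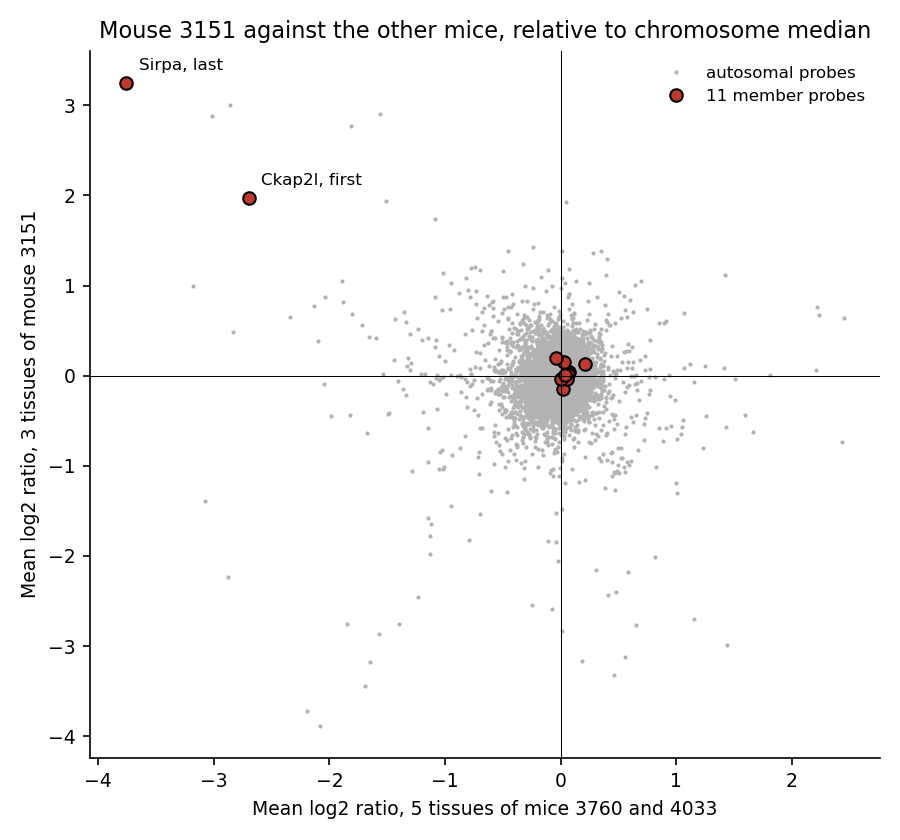
Each point is an autosomal probe, with the mean log2 ratio relative to its chromosome median in the 5 tissues of mice 3760 and 4033 (horizontal) and in the 3 tissues of mouse 3151 (vertical); red points are the 11 members. The Sirpa probe at -3.76 and 3.25 and the Ckap2l probe at -2.70 and 1.98 lie far out in the upper left, and the 9 other members lie in the central cloud.

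The sign also differed between tissues of the same scan day and slide. The second scan day held the 3 tissues of mouse 3151 and tumor 2 of mouse 4033, and within it the Sirpa probe was at 2.93 to 3.58 in the former and -3.45 in the latter. The liver of mouse 3151 and tumor 2 of mouse 4033 shared a slide and stood at 3.24 and -3.45. The Ckap2l probe was at 1.81 and -2.36 in the same pair.

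A flanking probe outside the interval separated mouse 3151 from the others in the same direction. The sixth probe after it, intergenic at 129810877 to 129810936, was at 0.84, 0.74 and 0.75 in tumor 1, tumor 2 and the liver of mouse 3151. In mouse 3760 it was -0.51 in tumor 2 and -0.72 in the liver, and in mouse 4033 -0.57, -0.50 and -0.78 in tumor 1, tumor 2 and the liver. Both channels were well above background on all 15 arrays, so these are measured ratios and not bounds. The orientations differed by at most 0.28, and the gap in ratio between mouse 3151 and the others was 1.24. The references differed too, with a median intensity of 1101 on the arrays of mouse 3151 and 1767 on the others. In the tissue channel the medians were 1803 and 1174, so the gap holds reference as well as tissue. The 5 flanking probes between it and the Sirpa probe, in AK133597 and Stk35, had no such gap.

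Of the interleukin 1 genes, Il1a differed little between tissues. Its first probe was at 0.02, 0.10 and 0.00 in tumor 1, tumor 2 and the liver of mouse 3151, at 0.13 and 0.14 in tumor 2 and the liver of mouse 3760, and at 0.01, 0.04 and 0.05 in tumor 1, tumor 2 and the liver of mouse 4033. The other Il1a probe ranged from -0.04 in the liver of mouse 3760 to 0.11 in tumor 2 of that mouse. In HCC the Il1a probes averaged 0.06 ± 0.04 (SD, n = 5), and in the unaffected livers they averaged 0.04 ± 0.03 (SD, n = 3), so that HCC exceeded liver by 0.02, less than the spread between tissues. The orientations of the first Il1a probe differed by up to 1.18, in the liver of mouse 3151, where the array-centered value was 0.60 forward and -0.59 swapped.

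The single Il1b probe varied more than Il1a. It was at -0.22, -0.09 and -0.11 in tumor 1, tumor 2 and the liver of mouse 3151, at 0.25 and -0.12 in tumor 2 and the liver of mouse 3760, and at -0.01, -0.32 and 0.30 in tumor 1, tumor 2 and the liver of mouse 4033. Both signs occurred in HCC and in liver. HCC averaged -0.08 ± 0.22 (SD, n = 5) and the unaffected livers 0.02 ± 0.24 (SD, n = 3), and HCC minus liver was -0.10, less in size than either SD. The neighboring transcript AK076405, 4.2 kb after the start of the Il1b probe, ranged from -0.27 in tumor 2 of mouse 4033 to 0.47 in tumor 2 of mouse 3760.

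In 1 tumor these genes lay high together with chromosome 2 as a whole. In tumor 1 of mouse 4033 the chromosome 2 median was 0.36 relative to all autosomal probes, and on that scale the Il1a mean was 0.41, Il1b was 0.34 and the mean of the 9 inner members was 0.36, all close to the chromosome median. The next highest chromosome 2 median was 0.11 in tumor 1 of mouse 3151, where the inner members were at 0.15, and the lowest was -0.10 in tumor 2 of mouse 4033, with the inner members at -0.09. Relative to chromosome 2 the inner members spanned -0.02 to 0.14 over the 8 tissues. On that scale HCC stood at 0.06 ± 0.06 (SD, n = 5) and the unaffected livers at 0.02 ± 0.04 (SD, n = 3). In tumor 1 of mouse 4033 Il1a was then at 0.05 and Il1b at -0.01.

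**Figure D4:**
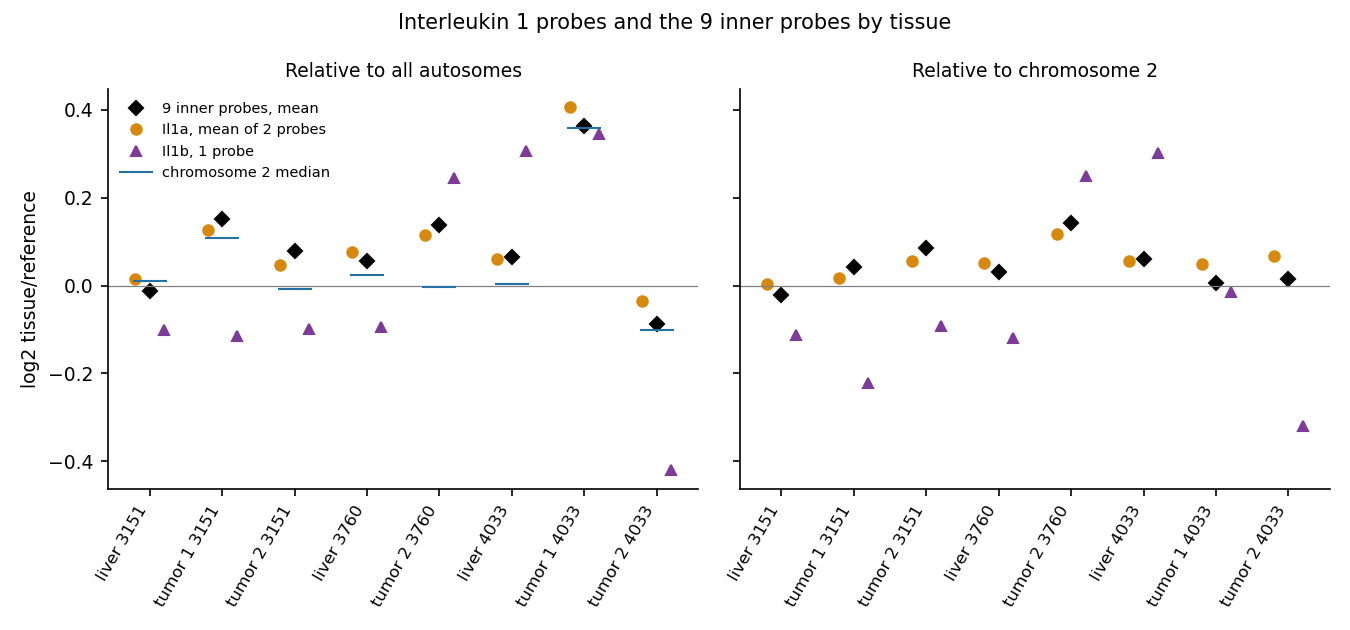
The log2 ratio by tissue of the mean of the 9 inner member probes, of Il1a (mean of 2 probes) and of Il1b (1 probe), relative to all autosomal probes (left, with the chromosome 2 median as a bar) and relative to chromosome 2 (right). Tumor 1 of mouse 4033 stands at 0.34 to 0.41 on the left and at -0.01 to 0.05 on the right.

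Among the 72 values of the 9 inner members, 8 were at least 0.3 from the chromosome median (11.1%), against 9.81% of all autosomal probe values and 9.38% of the 160 flanking values. Of these, 3 were at the fourth member probe, at 129182567 to 129182626 between Il1a and Il1b. It stood at 0.40, 0.37 and 0.61 in tumor 2 of mice 3151, 3760 and 4033, and between -0.07 and 0.07 in the other 5 tissues. In tumor 2 of mouse 4033 the orientations disagreed, with array-centered values of -0.08 forward and 1.09 swapped, and tumor 2 of mouse 3760 had a forward array alone. F830045P16Rik, a gene between the interleukin genes and Sirpa, ranged as a mean of 2 probes from -0.12 in the liver of mouse 3151 to 0.11 in the liver of mouse 3760. Its first probe reached 0.41 in tumor 2 of mouse 3760 and its second was at -0.26 in the same tissue. The seventh member probe, intergenic at 129283111 to 129283170, was at 0.28, 0.16 and 0.14 in tumor 1, tumor 2 and the liver of mouse 3151. In the other mice it ranged from -0.17 in the liver of mouse 4033 to 0.12 in the liver of mouse 3760. Mouse 3151 thus lay above the others there too, by a gap of 0.02, far under the limit of 0.3.

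HCC and unaffected liver were then compared over the interval as a whole. The region level, the mean of the 11 members relative to chromosome 2, was 0.58, 0.49 and 0.44 in tumor 1, tumor 2 and the liver of mouse 3151, -0.42 and -0.51 in tumor 2 and the liver of mouse 3760, and -0.67, -0.52 and -0.61 in tumor 1, tumor 2 and the liver of mouse 4033. By mouse it was 0.50 ± 0.07 (SD, n = 3 tissues), -0.47 ± 0.06 (SD, n = 2) and -0.60 ± 0.08 (SD, n = 3). Averaged by group, HCC stood at -0.11 ± 0.59 (SD, n = 5) and the unaffected livers at -0.23 ± 0.58 (SD, n = 3), and the difference of 0.12 was far smaller than the spread within either group. Tumor minus liver of the same mouse ranged from -0.05 to 0.14 over the 5 tumors, with a mean of 0.06 ± 0.07 (SD, n = 5) and 4 of 5 above 0, but this includes the 2 bounds. Over the 9 inner members alone it ranged from -0.05 to 0.11, with a mean of 0.04 ± 0.08 (SD, n = 5) and 3 of 5 above 0, tumor 2 of mouse 4033 going from 0.10 to -0.05. Without the first and last members the region level of the 3 mice was 0.04, 0.09 and 0.03. The difference between mice in the region level thus rested on those 2 probes, whose values are bounds.

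In limma across 40726 autosomal probes on the array-centered scale, 0 probes (0%) were called between HCC and unaffected liver at an adjusted p of 0.05, and 3012 had an unadjusted p under 0.05. No member was called. The difference of HCC minus liver was 0.62 with a standard error of 1.26 at the Ckap2l probe (limma adjusted p = 0.908). At the Sirpa probe it was 0.50 with a standard error of 1.89 (limma adjusted p = 0.952). The spread between mice enters the error at both probes. Their values are bounds, so nothing is read from these differences. The smallest p among the members was at the fourth probe, between Il1a and Il1b, with a difference of 0.35 and a standard error of 0.13 (limma across all probes, unadjusted p = 0.0186, adjusted p = 0.549). On this scale it was the only member under 0.05 unadjusted. Relative to the chromosome median 0 members were under 0.05 unadjusted. The same count of 0 came from forward arrays alone and from leaving out the liver of mouse 3151 or of mouse 4033. Each other limma fit had 1 such member. A p that misses the threshold does not show that tumor and liver are alike at these probes.

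Genes that act with the members were read in the same way. Of 36 listed names of interleukin 1 family ligands, receptors, activating and signaling proteins and partners of Sirpa and Ckap2l, 29 matched a gene name of the array and 28 were autosomal, and 0 of the 28 had every tissue of mouse 3151 at least 0.3 above or below all others, against 85 and 61 of 19946 autosomal gene names, a share at which 0 among 28 says nothing particular about the list. Among ligands, Il1rn, the secreted receptor antagonist on chromosome 2, ranged from -0.06 to 0.18 over the 8 tissues as the mean of 2 probes, and Il33 from -0.10 to 0.09. Among receptors, Il1r1, the signaling receptor of both cytokines, had 1 probe, at -1.08 in tumor 2 of mouse 3151 and at 0.28 in tumor 2 of mouse 3760, and Il1rap, its accessory chain, ranged from -0.04 to 0.18. Casp1, the protease that cuts interleukin 1 beta to its active form, ranged from -0.13 to 0.11, and the adaptor Myd88 from -0.20 to 0.07. Cd47, the ligand of Sirpa, ranged from -0.10 to 0.02, and Ptpn11, a phosphatase that Sirpa recruits, from -0.09 to 0.10. Of 224 values of the 28 genes, 11 were at least 0.3 from the chromosome median (4.91%), against 6.91% over all autosomal gene names. These 11 lay in 8 genes: Il1f5, Il1f9, Il1f10, Il1r1, Il1r2, Il1rl2, Il18rap and Ptpn6. Among them Il1r2 ranged from -0.42 to 0.38, Il1f10 from -0.25 to 0.43, and Ptpn6, listed as a partner of Sirpa, from -0.01 to 0.40. In limma 0 of the 28 genes had a probe called, and the median HCC minus liver difference was 0.02, against 0.00 over all names.

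The gene names whose pattern over the 8 tissues was most like the region level were taken from names with at least 2 probes, at least 1 Mb away or on another autosome, with a range of at least 0.62 (860 names). They were Alad on chromosome 4 (r = 0.989), AK034276 on chromosome 2 (r = 0.984), Mfhas1 on chromosome 8 (r = 0.981), Zfp112 on chromosome 7 (r = 0.978) and Triml1 on chromosome 8 (r = 0.977). The 8 points share mice and references and fall into 2 clusters, mouse 3151 and the rest, so each r describes that split. Alad, which encodes an enzyme of heme synthesis, was at 0.28 to 0.39 in mouse 3151 and at -0.51 to -0.40 in the other mice, and both of its probes varied by at least 1. AK034276 was at 0.81 to 1.04 and at -0.87 to -0.65, with 1 of its 2 probes varying by at least 1, as at Ckap2l and Sirpa.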

How the data were processed

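Genomic DNA of 5 HCC and 3 unaffected livers was hybridized on 15 two-channel Agilent arrays on 4 slides, scanned on 2 days. Per the file headers, the authors made the deposited intensity values with Agilent Feature Extraction 9.1.3.1, background-subtracted and dye-normalized, with a substituted signal near background. The deposited log10 ratios equaled the scanner files' log ratios at all 43020 spots of each of the 15 arrays, with the sign turned on dye swaps. Here the intensities were turned into log2 tissue/reference ratios, with the sign reversed on dye swaps, without control or outlier-marked spots, centered on each array's autosomal median, and averaged over orientations to 1 value per tissue. Member values are relative to the chromosome median. Limma 3.58.1 in R 4.3.3 compared HCC with liver over 40726 probes (lmFit, eBayes, two-sided, Benjamini-Hochberg). Tables used Python 3.11.15, numpy 2.4.6 and pandas 2.3.3, and plots matplotlib 3.10.9. The limma step was tested on simulated data. The text gives all 11 members and the flanking probes described, the 5 most alike gene names, and some of the related genes, with counts over their whole list. The members and lists were chosen with earlier results of these data known. Gene names are those of the array, Rpo1-2 being Polr1b in the GRCm38.p6 table. Per the labels, tissues of the same mouse pair the groups, and p-values measure the spread between these tissues. The number of arrays limits the precision. Alternatives were another background correction, baselines, orientations, outlier-marked spots kept, the median over members, gap limits, scan day, the mouse as a block and leaving out each tissue.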

Additional observations from a re-analysis of the deposited data

Results flagged for a closer look

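Of the 13 values checked in the 5 HCC (the region level, the mean of the inner members and each member probe), 0 had a tumor that stood apart from the others by Dixon's criterion. The first Il1a probe was the only value at which every tumor of the female mouse moved one way from its own liver and every tumor of the male mice the other. The tumors of mouse 3151 lay above their liver by a mean of 0.0617 (0.02 and 0.10), and those of mice 3760 and 4033 differed from theirs by a mean of -0.02 (-0.04 to -0.01). This difference was not tested, and it is smaller than the probe noise of 0.08 to 0.20 and than the difference between dye orientations at this probe, which was 0.24 at the median.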

How the results depend on the processing

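The first and last members kept their gap between mouse 3151 and the others under every alternative tried, gap limits of 0.2 and 0.5, each tissue left out and the second scan day alone included. The interval was chosen with this contrast and these 2 probes are its limits, so nothing is read from their keeping the gap. The count for any mouse was 2 to 3: without the liver of mouse 3760, the first F830045P16Rik probe joined because tumor 2 of mouse 3760, then the only tissue of that mouse, lay above all others. The region level of mouse 3151, 0.50, became 0.16 with normexp, 0.34 on forward and 0.65 on dye-swap arrays, 0.0565 as a median over members and 0.0356 without the first and last member, an alternative chosen after seeing the data. That of mouse 3760, -0.47, became -0.28 with normexp, -0.39 against the flanking probes and -0.59 on dye-swap arrays, and changed sign to 0.0746 as a median and 0.0860 without those 2 members. That of mouse 4033, -0.60, became -0.22 with normexp, -0.51 relative to all autosomes, -0.68 on forward and -0.50 on dye-swap arrays, -0.0352 as a median and 0.0266 without those members. The median and the inner mean leave out the 2 large values by construction; for the others the cause was not tested. HCC minus liver, 0.12, ranged from -0.07 to 0.45 with 1 tissue left out, and was below 0 without tumor 2 (-0.03) or tumor 1 (-0.05) of mouse 3151 or the liver of mouse 3760 (-0.02) or 4033 (-0.07). It was 0.07 with the mouse as a block, 0.01 and -0.26 within the scan days and -0.10 with scan day as a block; all stayed within the spread of 0.59 between tissues. Limma called 0 probes in every fit, the paired fit with the mouse as a block too (2573 unadjusted); unadjusted counts ran from 1480 to 5091 with 1 tissue left out and 625 relative to chromosome medians. The dim channel near background limits the first and last members to bounds.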

Other observations

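On the rest of chromosome 2, other single probes separated mouse 3151 from the other mice in the direction seen at Ckap2l and Sirpa. Every tissue of mouse 3151 was at least 0.3 above all others at 42 of 3523 probes of the chromosome (1.19%), members included, and at least 0.3 below at 15. Over all autosomal probes the shares were 0.503% above and 0.381% below. By chromosome the share above ran from 0% on chromosome 19 to 1.44% on chromosome 8. Chromosome 2 came next after chromosome 8, followed by chromosome 12 at 0.992%. All 42 probes of chromosome 2 lay between 94245073 and 172828066, and none before. The nearest such probe beyond the flanks was in Rassf2, 2.70 Mb after the first member, at a mean of 0.71 in mouse 3151 and -0.68 in the other mice. The nearest before the flanks was in Gpr176, at 0.02 and -1.53. Uqcc, 26.6 Mb after the first member, had the largest mean in mouse 3151 of the probes elsewhere on the chromosome with such a gap, at 2.91 against -1.56. These contrasts share the mice and references with the members, and they are given as values with no test. One flanking probe, intergenic and 40.7 kb before the first member, went the other way, at -0.37 in mouse 3151 and 0.15 in the rest.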
